A study of Homo sapiens with 30 samples.

Results

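A375 melanoma cells exposed to 650 nM MLN4924 were compared after 4 h and after 1 h of exposure. The arrays were chosen by their titles alone: 3 arrays of MLN4924 at 4 h were set against 3 arrays of MLN4924 at 1 h, 6 of the 30 arrays in the series. A375 is an established human melanoma cell line, and MLN4924 (pevonedistat) is a small molecule that blocks the NEDD8-activating enzyme. The other arrays held MLN4924 at 2, 8 and 24 h and the vehicle, 0.065% DMSO, at 1, 2, 4, 8 and 24 h, again with 3 arrays a group. Both groups compared here had received the drug, so a 4 h minus 1 h change holds the time in culture as well as the time under drug. The same hours in DMSO are therefore given beside it, with a test of the difference between the arms. No label states that the 3 replicates were separate cultures, so p-values reflect the spread among these arrays, and that spread could be technical. Each array is RNA of a whole culture, in which fewer cells of a type and less RNA per cell cannot be told apart.

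NEDD8 is a ubiquitin-like protein that is joined to cullins, the scaffolds of the cullin-RING ubiquitin ligases, and switches these ligases on. The enzyme that starts the reaction is a dimer of NAE1 and UBA3, and its inhibition lets ligase substrates build up. A well known substrate is NRF2 (gene NFE2L2), which the adaptor KEAP1 holds to the CUL3 ligase for destruction and which, when stabilised, turns on antioxidant and detoxification genes. Other substrates include the replication licensing factor CDT1, cyclin E, ATF4, MYC and beta-catenin, so the arrays read the transcripts downstream of proteins that were not measured here.

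Array medians ran from 32.6 to 35.8 at 4 h and from 34.7 to 35.7 at 1 h, in the linear unit of the deposited table. The ratio of 3' to 5' signal of ACTB, a sign of RNA integrity, ran from 1.208 to 1.257 at 4 h and from 1.238 to 1.56 at 1 h, and its part in the results was not tested. The first principal component held 33.9% of the variance of the 6 arrays and placed the 4 h arrays at 12.85 to 17.07 and the 1 h arrays at -17.42 to -12.55. Values below are quantile-normalized signals, and changes are differences of log2(signal + 32) from limma with Benjamini-Hochberg adjustment over all 19775 genes. A gene was called at an adjusted p under 0.05, and folds are on the signal + 32 scale, which understates the change of dim genes. The number of arrays, 3 a group, limits the precision.

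Between 1 and 4 h of MLN4924 HMOX1, an antioxidant gene controlled by NRF2, had the largest increase of the called genes, and the NRF2 targets SRXN1, SLC7A11 and OSGIN1 were among the 15 largest increases. The immediate early gene EGR1 had the largest decrease, and FOS, FOSB and the signalling inhibitors SPRY2 and DUSP10 were among the 15 largest decreases. In all, 896 of 19775 genes were called (4.53%), 447 higher at 4 h (2.26%) and 449 lower (2.27%), against 3020 genes at an unadjusted p under 0.05. Of these, 30 were at least 2-fold higher at 4 h and 17 at least 2-fold lower, and the median change of all genes was -0.009. A fit to these 6 arrays alone called 290 genes. With genes of below-median signal left out, 1086 genes were called, 528 higher and 558 lower. The shares of all genes set beside the lists below count dim genes too, so they are lower than the shares among brighter genes. Over the same hours in DMSO 67 genes were called (0.339%), 46 higher and 21 lower, against 1412 at an unadjusted p under 0.05. A fit to the 6 DMSO arrays alone called 0 genes, with 1594 at an unadjusted p under 0.05. The change in MLN4924 differed from the change in DMSO for 273 genes (1.38%), 134 with a more positive change under the drug (0.678%) and 139 with a more negative change (0.703%).

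**Figure D1:**
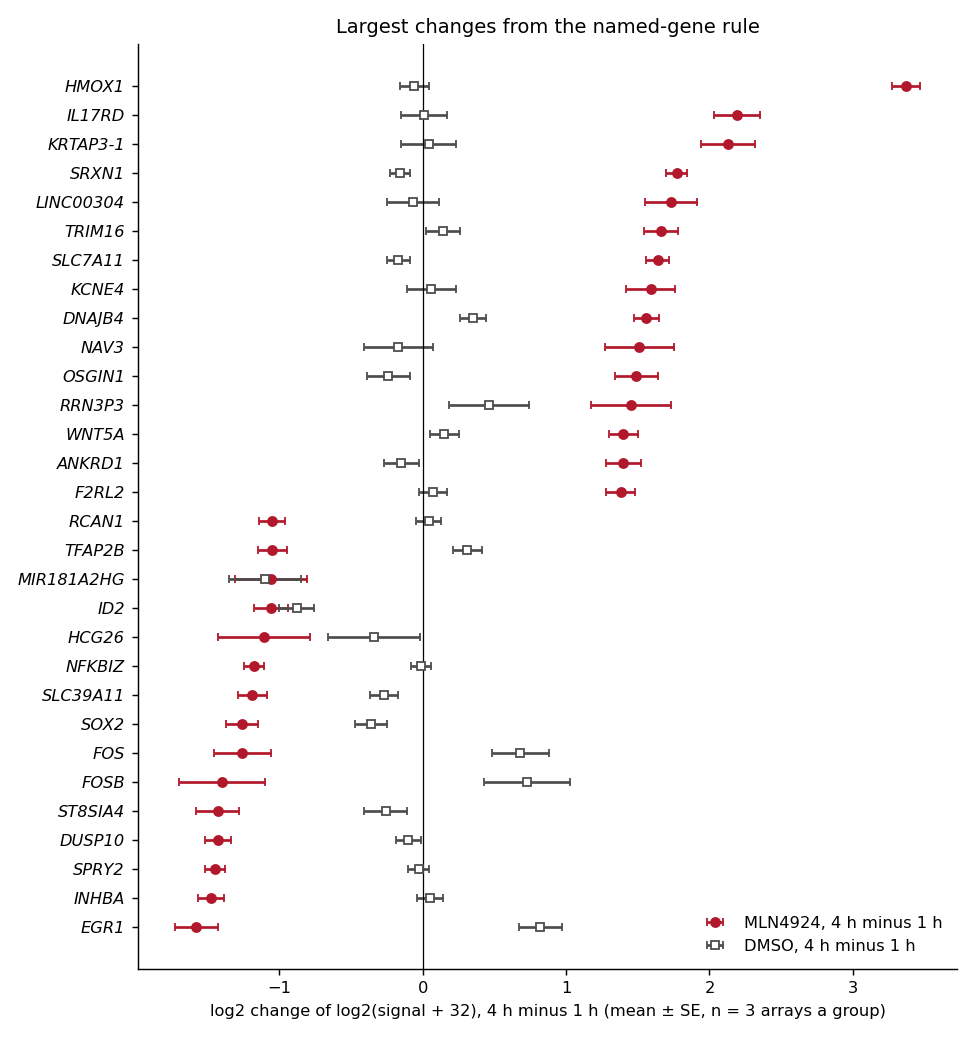
Log2 change from 1 h to 4 h (horizontal axis, log2 of signal + 32, mean ± SE, n = 3 arrays a group) for the 15 largest increases and 15 largest decreases taken by the rule for named genes. Filled circles are MLN4924 and open squares DMSO. HMOX1 stands apart at 3.37 in MLN4924 and -0.06 in DMSO, and for ID2 and MIR181A2HG the points of both arms nearly coincide.

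HMOX1 (chromosome 22), which breaks heme down to biliverdin, iron and carbon monoxide, had signals of 3665, 3866 and 3670 at 4 h, against 303.2, 407.3 and 295.3 at 1 h. All 4 h arrays lay far above all 1 h arrays, a change of 3.37 ± 0.10 (SE, 10.3-fold, adjusted p = 3.52e-17). In DMSO the signal averaged 208 ± 12.1 at 4 h and 217 ± 11.2 at 1 h (SD, n = 3 each), and the change under the drug exceeded that in DMSO by 3.43 ± 0.14 (adjusted p = 5.83e-14).

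Of 38 measured NRF2 targets, 24 rose and 1 fell, beside 2.26% and 2.27% of all genes, and the median change of the list was 0.38. None of the 38 was called in DMSO (0 at the same threshold, list median 0.02), and 15 rose more under the drug than in DMSO. SRXN1, which reactivates oxidised peroxiredoxins, had 2275, 2298 and 2334 at 4 h and 615.9, 709.4 and 640.5 at 1 h. The cystine importer SLC7A11 had 3416, 3568 and 3416 at 4 h and 1014, 1215 and 1054 at 1 h. In neither gene did the groups overlap, and the changes were 1.77 ± 0.07 (adjusted p = 7.56e-14) and 1.64 ± 0.08 (adjusted p = 7.12e-13). TXNRD1, the cytosolic thioredoxin reductase, had 7834, 7264 and 7390 at 4 h and 3004, 3085 and 3122 at 1 h, a change of 1.28 ± 0.06 (adjusted p = 9.89e-13, and 0.58 for the mean of its probe sets). For glutathione synthesis, GCLM, the modifier subunit of glutamate-cysteine ligase, had 3139, 3048 and 2967 at 4 h and 1549, 1438 and 1511 at 1 h, a change of 1.01 ± 0.08 (adjusted p = 1.19e-08). Its catalytic partner GCLC rose by 0.53 ± 0.08 (adjusted p = 0.000111, and 0.0986 in the fit to the 6 arrays). Both subunits thus stood higher at 4 h, the modifier by the larger amount.

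The same list held exporters, reductases and carriers that rose by less or from a lower level. OSGIN1, a growth inhibitor named for its induction by oxidative stress, had 186.5, 115.9 and 157.5 at 4 h and 31.34, 34.31 and 33.31 at 1 h, and the conjugate exporter ABCC2 had 288.3, 271.3 and 256.9 at 4 h and 103.6, 117.6 and 104.4 at 1 h. The changes were 1.49 ± 0.15 (adjusted p = 4.63e-07) and 1.11 ± 0.07 (adjusted p = 2.53e-10). The glutathione reductase GSR (0.54 ± 0.09) and the aldo-keto reductase AKR1B10 (0.81 ± 0.13, and 1.29 with 1 added to the signal) rose as well. AKR1C1 rose by 1.05 ± 0.11 on a probe set with a name ending in _x_at or _s_at, and its sequence is close to that of AKR1C2 and AKR1C3. Probes of these kinds can match several transcripts, of the same gene or of other genes. Without such probe sets the change of AKR1C1 was 0.06 (adjusted p = 0.947). NQO1, a quinone reductase much used as a marker of NRF2, rose only slightly, with 6680, 6032 and 6488 at 4 h and 5347, 4925 and 5268 at 1 h. For the mean of its probe sets the change was 0.52. Its change of 0.30 ± 0.07 had an adjusted p of 0.00604, which was 0.117 in the fit to the 6 arrays, and it did not pass the test of a difference from DMSO (0.19 ± 0.09, adjusted p = 0.48). TXNIP, the inhibitor of thioredoxin, was the member that fell, by 0.47 ± 0.10 (adjusted p = 0.00352), and its call ended in the fit to the 6 arrays (adjusted p = 0.0789) and with the mean of its probe sets (adjusted p = 0.183). Of the 24 that rose, 14 kept the call in the fit to the 6 arrays and 20 kept it whichever of the 6 arrays was left out, the exceptions being BLVRB, FECH, FTL and TKT.

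Of 9 measured regulators and partners of NRF2, 2 rose and none fell, beside 2.26% and 2.27% of all genes. MAFG, the small MAF protein that pairs with NRF2 on DNA, had 385.9, 363.4 and 357.2 at 4 h and 249.9, 234.6 and 228.6 at 1 h, a change of 0.57 ± 0.10 (adjusted p = 0.00107). KEAP1 had 476.4, 487.4 and 503.0 at 4 h and 328.7, 415.7 and 332.2 at 1 h, a change of 0.42 ± 0.11 (adjusted p = 0.0289). The call of KEAP1 was lost when any array but MLN4924 1 h replicate 2 was left out, with adjusted p-values from 0.0643 without 4 h replicate 1 to 0.134 without 1 h replicate 1. The transcript of NRF2 itself, NFE2L2, averaged 1550 ± 35.1 at 4 h and 1460 ± 53.5 at 1 h (SD, n = 3 each), a change of 0.09 ± 0.07 that did not pass the test (adjusted p = 0.68).

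NRF2 binds as a dimer with a small MAF protein to the antioxidant response element, whose core was searched as TGACNNNGC on both strands in the 250 bases before each annotated gene start. Sequences are from RefSeq on GRCh38.p14. TXNRD1 and GCLM are shown because both rose and the window shown for each holds a match, which is in capitals. TXNRD1 has 2 windows, and the window shown lies at chr12:104286782-104287031 on the plus strand, with the match 102 bases before the start. Its other window, at chr12:104215529-104215778, also holds a match, 99 bases before that start. The GCLM window lies at chr1:93909431-93909680 on the minus strand, with the match 34 bases before the start.
TXNRD1: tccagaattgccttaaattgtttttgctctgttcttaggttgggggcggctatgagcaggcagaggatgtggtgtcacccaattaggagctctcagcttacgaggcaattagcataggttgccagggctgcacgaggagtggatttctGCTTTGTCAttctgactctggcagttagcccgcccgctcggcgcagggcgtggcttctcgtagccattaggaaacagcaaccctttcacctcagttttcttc
GCLM: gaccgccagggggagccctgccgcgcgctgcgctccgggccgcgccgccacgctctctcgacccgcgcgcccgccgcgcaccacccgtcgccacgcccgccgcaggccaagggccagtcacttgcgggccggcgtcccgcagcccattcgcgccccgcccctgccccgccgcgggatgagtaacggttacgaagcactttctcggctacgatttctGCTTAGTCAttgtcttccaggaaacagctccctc
Such a match is common in windows of this length. It was present for 9 of the 30 NRF2 targets with a window, for 17.4% of the 363 genes that rose and have a window, and for 15.2% of all 15384 genes with a window. The match describes these letters only and does not show binding.

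Targets of ATF4, the transcription factor of the amino acid and integrated stress response, rose in part. Of 31 measured members 12 rose and 1 fell, beside 2.26% and 2.27% of all genes, and the list median was 0.23. In DMSO 1 rose and 1 fell, and 6 rose more and 1 less under the drug than in DMSO. SLC7A11, given above, belongs to this list too. TRIB3, a pseudokinase that restrains AKT and ATF4, had 1294, 1360 and 1236 at 4 h and 626.1, 668.2 and 639.6 at 1 h, a change of 0.97 ± 0.06 (adjusted p = 5.64e-11) against -0.04 in DMSO. CHAC1, which degrades glutathione, had 157.2, 148.5 and 163.2 at 4 h and 93.2, 98.36 and 75.22 at 1 h, a change of 0.64 ± 0.08 (adjusted p = 1.94e-05). At 2 h it was higher still (181.1, 173.4 and 209.6), above every array of both other times. DDIT4, an inhibitor of mTORC1, rose by 0.77 ± 0.09 under the drug but by 1.43 ± 0.09 in DMSO, so that its drug-arm change was the smaller by 0.66 ± 0.13 (adjusted p = 0.00534). ATF4 itself (0.01 ± 0.06, adjusted p = 0.973) and DDIT3, the death-linked factor CHOP (-0.41 ± 0.18, adjusted p = 0.264), did not pass the test. PPP1R15A, the phosphatase subunit that reverses the stress arrest of translation, was the member that fell (-0.39 ± 0.10, adjusted p = 0.0274), and its call was lost in the fit to the 6 arrays (adjusted p = 0.113) and without 4 h replicate 2 (0.143), 4 h replicate 3 (0.0737), 1 h replicate 1 (0.142) or 1 h replicate 2 (0.0707). In the fit to the 6 arrays 4 of the 12 increases kept their call, and ATF3, JDP2, MTHFD2, SLC7A1 and VLDLR each lost theirs when some array was left out.

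The C/EBP-ATF response element, searched as TGATGNAA on both strands, was found in the window of 7 of 25 members of this list, against 3.86% of the 363 genes that rose and 3.19% of all genes. CHAC1 is shown because it rose and its window holds the element. It lies at chr15:40953221-40953470 on the plus strand, with the match 209 bases before the start in capitals.
CHAC1: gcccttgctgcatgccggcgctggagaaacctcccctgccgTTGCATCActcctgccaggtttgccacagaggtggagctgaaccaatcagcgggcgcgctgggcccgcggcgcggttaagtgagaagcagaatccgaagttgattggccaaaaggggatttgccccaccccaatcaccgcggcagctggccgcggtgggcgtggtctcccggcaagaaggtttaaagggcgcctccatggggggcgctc

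Immediate early genes, which growth factors and stress switch on within minutes, gave decreases led by EGR1, FOSB and FOS and increases led by MYC. Of 32 measured immediate early and AP-1 genes 10 fell, 4 rose and 18 were not called, beside 2.27% of all genes lower and 2.26% higher. In the test between the arms 9 changed more negatively and 5 more positively under the drug than in DMSO. EGR1 (chromosome 5), a zinc finger factor downstream of ERK, had 73.32, 69.1 and 74.65 at 4 h, against 313.5, 360.5 and 189.5 at 1 h. The 4 h arrays were close together and all below the more scattered 1 h arrays, a change of -1.58 ± 0.15 (adjusted p = 1.33e-07). In DMSO EGR1 went the other way, with 369.6, 314.1 and 370.4 at 4 h and 162.4, 191.7 and 201.4 at 1 h, and the arms differed by -2.40 ± 0.21 (adjusted p = 1.1e-07). FOS, a subunit of AP-1, had 105.0, 82.23 and 91.24 at 4 h and 297.3, 365.4 and 171.3 at 1 h, without overlap. Its change was -1.26 ± 0.20 (adjusted p = 0.000208, and 0.069 in the fit to the 6 arrays). FOSB fell by 1.40 ± 0.30 on the log2 scale (adjusted p = 0.00483, and a change of -2.44 with 1 added to the signal), but its call was lost in the fit to the 6 arrays (adjusted p = 0.0955) and without MLN4924 1 h replicate 2 (adjusted p = 0.0508). The orphan nuclear receptor NR4A2 had 94.15, 92.24 and 116.4 at 4 h and 218.8, 203.7 and 180.4 at 1 h, a change of -0.81 ± 0.12 (adjusted p = 7.42e-05). BTG1, an antiproliferative factor, fell by 0.75 ± 0.06 (adjusted p = 1.77e-08) and the stress gene IER3 by 0.49 ± 0.07 (adjusted p = 8.18e-05).

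MYC, which drives growth and ribosome production and belongs to the same list, was the largest increase in it. It had 601.4, 528.8 and 557.1 at 4 h and 269.9, 234.8 and 244.9 at 1 h, a change of 1.08 ± 0.09 (adjusted p = 2.34e-08). In DMSO it averaged 169 ± 9.0 at 4 h and 212 ± 24.0 at 1 h (SD, n = 3 each), a change of -0.28 that was not called. Of 23 measured ribosome biogenesis factors 1 was called (4.35%, near the 4.53% of all genes). It was BYSL, which rose by 0.31 ± 0.08 (adjusted p = 0.0188). The call of BYSL was lost in the fit to the 6 arrays (adjusted p = 0.0924) and without 4 h replicate 1 (0.0631), 4 h replicate 3 (0.0749) or 1 h replicate 3 (0.0953). None of 34 cytosolic ribosomal protein genes was called in limma, and their changes ran from -0.09 to 0.11. MAX (0.24), the partner of MYC, and MXI1 (0.20), of the same network, were not called.

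Serum response factor acts on immediate early genes through the CArG box, which was found in the window of 2 of the 22 listed genes with a window, EGR1 and SRF, against 1.58% of the genes that fell and 1.55% of all genes. The window of EGR1, at chr5:138465229-138465478 on the plus strand, is shown because it holds 2 boxes, 105 and 83 bases before the start, both in capitals.
EGR1: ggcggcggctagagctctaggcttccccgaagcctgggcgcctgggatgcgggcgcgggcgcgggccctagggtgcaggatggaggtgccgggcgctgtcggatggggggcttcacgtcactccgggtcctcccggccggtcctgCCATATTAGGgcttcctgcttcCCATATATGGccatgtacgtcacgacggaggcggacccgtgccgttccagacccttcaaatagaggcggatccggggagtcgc

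Feedback and output genes of the MAP kinase pathway moved in both directions, 7 up and 4 down of 30 measured, beside 2.26% and 2.27% of all genes, with a list median of 0.11. In DMSO 2 rose, and in the test between the arms 3 changed more positively and 5 more negatively under the drug. SPRY2, which restrains signalling from receptor tyrosine kinases to RAS, had 798.0, 812.2 and 828.8 at 4 h and 2253, 2387 and 2185 at 1 h. DUSP10, a phosphatase of the kinases JNK and p38, had 113.0, 97.55 and 119.6 at 4 h and 339.6, 377.5 and 332.9 at 1 h. Both groups were tight and well apart in each gene, with changes of -1.45 ± 0.07 (adjusted p = 1.78e-12) and -1.43 ± 0.09 (adjusted p = 6.89e-11). The DMSO changes of SPRY2 and DUSP10 were -0.03 and -0.10. IL17RD (also SEF), an inhibitor of FGF receptor and ERK signalling, stood at the other end of the list, with 726.4, 766.8 and 647.2 at 4 h and 137.8, 139.4 and 116.4 at 1 h. Its change of 2.19 ± 0.16 (adjusted p = 1.55e-09) was the second largest increase of the named genes, against 0.01 in DMSO, and was 1.40 for the mean of its probe sets. SPRY4, of the same family as SPRY2, rose by 0.65 ± 0.11 (adjusted p = 0.000514), but it also rose in DMSO (0.54 ± 0.11, adjusted p = 0.0238). The ERK phosphatase DUSP5 rose by 0.62 ± 0.11 (adjusted p = 0.000955) and the cyclin D1 gene CCND1 by 0.67 ± 0.10 (adjusted p = 6.9e-05). The other main ERK phosphatase of this family, DUSP6, changed by 0.07 and was not called.

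**Figure D2:**
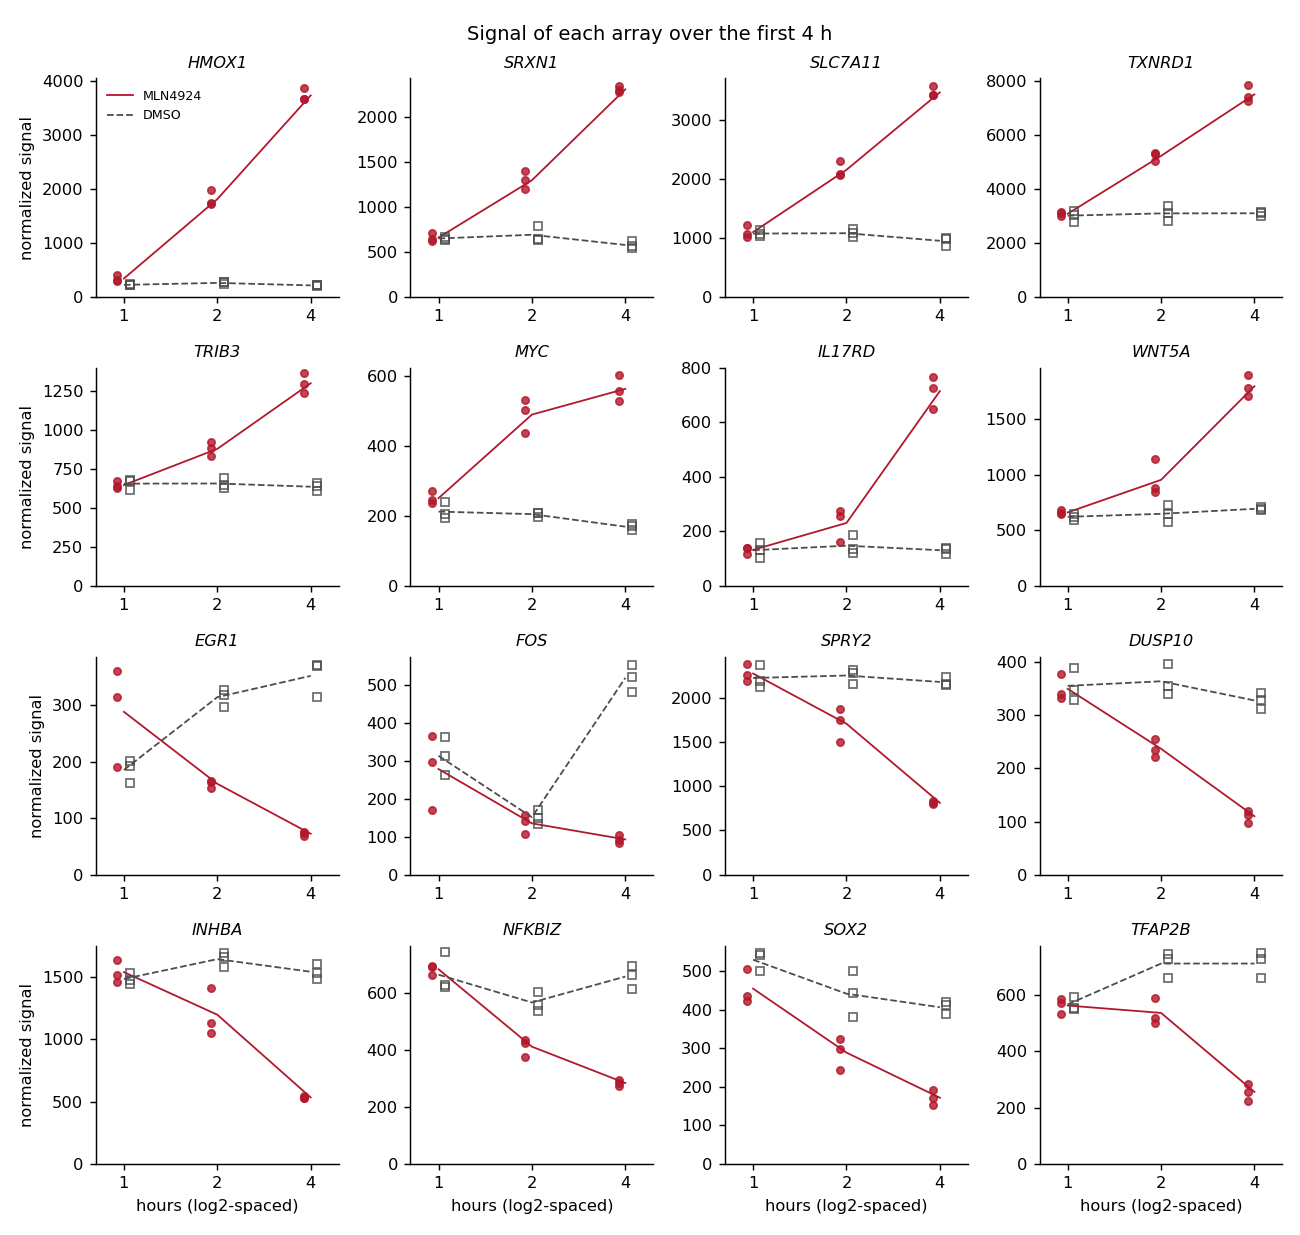
Normalized signal (vertical axis, linear) of each array at 1, 2 and 4 h (horizontal axis, equally spaced) for 16 genes. Red circles are MLN4924 arrays, open squares DMSO arrays, and lines join the group means. HMOX1, SRXN1, SLC7A11 and TXNRD1 climb at both steps under MLN4924, and EGR1 falls under MLN4924 to a mean of 72.4 at 4 h, below every DMSO array of that time.

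Of 24 ligands and feedback genes of the TGF-beta family 5 fell, 3 rose and 16 were not called, beside 2.27% of all genes lower and 2.26% higher. In the test between the arms 2 changed more negatively and 2 more positively under the drug. INHBA, which encodes the beta A subunit of activin A, had 524.5, 526.3 and 547.5 at 4 h and 1519, 1641 and 1459 at 1 h. Its 4 h arrays lay far below the 1 h arrays, a change of -1.48 ± 0.09 (adjusted p = 6.89e-11), with 0.05 in DMSO. Follistatin (FST), the secreted binder of activin, fell by 0.68 ± 0.08 (adjusted p = 3.98e-06). The inhibitors of helix-loop-helix factors ID1, ID2 and ID3, known BMP targets, fell by 0.70 ± 0.11, 1.06 ± 0.12 and 0.87 ± 0.14. ID2 had 100.5, 117.6 and 122.9 at 4 h and 261.2, 271.8 and 278.3 at 1 h (adjusted p = 2.44e-06), and it fell nearly as much in DMSO (-0.88 ± 0.12, adjusted p = 0.000466), with no difference called between the arms (-0.18 ± 0.17, adjusted p = 0.8). SMURF2, a ubiquitin ligase for the receptors of this pathway, rose by 0.81 ± 0.09 (adjusted p = 1.72e-06). All 5 decreases of the list were called under every alternative. The call of SMURF2 ended without _x_at and _s_at probe sets, where its change was 1.02 (adjusted p = 0.12).

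Among secreted cytokines and growth factors 5 fell and 3 rose of 24, beside 2.27% and 2.26% of all genes. INHBA and FST were 2 of the 5. IL24, an IL10-family cytokine first found in melanoma cells, had 85.07, 80.96 and 81.77 at 4 h and 162.1, 159.1 and 155.4 at 1 h, a change of -0.74 ± 0.09 (adjusted p = 1.26e-05). CXCL8, the neutrophil attractant IL-8, had 741.1, 769.9 and 799.9 at 4 h and 586.5, 560.3 and 466.6 at 1 h (0.50 ± 0.08, adjusted p = 0.00019, and 0.0723 in the fit to the 6 arrays). Most targets and subunits of NF-kB were not called, 24 of 27, while 2 fell and 1 rose, beside 2.27% and 2.26% of all genes. The exception by size was NFKBIZ, a nuclear member of the inhibitor family, which had 274.4, 294.9 and 283.7 at 4 h and 691.2, 697.7 and 665.6 at 1 h. Its change of -1.18 ± 0.07 (adjusted p = 6.89e-11) stood against -0.01 in DMSO. NFKBIA, the inhibitor classically destroyed through a cullin-1 ligase, changed by -0.05 and was not called.

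WNT genes changed in both directions. WNT5A (chromosome 3), a ligand tied to invasive melanoma, had 1901, 1710 and 1785 at 4 h and 680.4, 652.8 and 648.2 at 1 h, a change of 1.40 ± 0.10 (adjusted p = 8.18e-10) against 0.15 in DMSO. Of 19 feedback and target genes 4 rose and 2 fell, beside 2.26% and 2.27% of all genes. AXIN2, the feedback scaffold that helps destroy beta-catenin, had 64.97, 81.06 and 60.19 at 4 h and 18.98, 23.54 and 15.71 at 1 h. Its change was 0.97 ± 0.10 (adjusted p = 4.98e-07), although the mean of its probe sets gave 0.26 (adjusted p = 0.17) and 1 added to the signal gave 1.78. The secreted antagonist DKK1 fell by 0.48 ± 0.05 (adjusted p = 1.88e-06) and the transcription factor TCF7L2 by 0.59 ± 0.07 (adjusted p = 2.41e-06). CCND1 and MYC, given above, are the remaining increases of this list beside ZNRF3 (0.46 ± 0.08, adjusted p = 0.000654, and 0.0585 in the fit to the 6 arrays).

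Targets of SRF and YAP, factors that respond to the actin cytoskeleton and cell contact, were mostly not called, 24 of 27. The other 3 rose, beside 2.26% of all genes. In DMSO 3 of the 27 fell, beside 0.106% of all genes. In the test between the arms 5 changed more positively under the drug, beside 0.678% of all genes, and none more negatively. ANKRD1 had 271.9, 343.6 and 297.3 at 4 h and 103.4, 98.76 and 84.42 at 1 h, a change of 1.40 ± 0.12 (adjusted p = 3.5e-08). CCN2, a matricellular protein also named CTGF, had 2408, 1868 and 2071 at 4 h and 1472, 1347 and 1323 at 1 h. It rose under the drug by 0.60 ± 0.10 (adjusted p = 0.000514, and 0.0572 in the fit to the 6 arrays) and fell in DMSO by 0.56 ± 0.10 (adjusted p = 0.00817). Of 27 hypoxia targets of HIF 4 rose and 1 fell, beside 2.26% and 2.27% of all genes. Adrenomedullin (ADM), a vasodilator peptide, had 866.5, 925.3 and 957.6 at 4 h and 481.0, 462.2 and 504.2 at 1 h, a change of 0.88 ± 0.07 (adjusted p = 3.57e-09), and PDK1, a kinase that slows pyruvate oxidation, rose by 0.47 ± 0.08 (adjusted p = 0.000659). VEGFA (0.23), EGLN3 (-0.09) and LDHA (0.05), central members of the same list, were not called.

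The transcription factors SOX2 and TFAP2B had the largest decreases in a broad list of melanocyte lineage and related genes. The narrower set of planned markers was MITF, SOX10, PAX3, TYR, TYRP1, DCT, PMEL, MLANA and TFAP2A. Of these only SOX10 and PAX3 were called, and neither call was stable. Of 22 measured list members 7 fell, 2 rose and 13 were not called, beside 2.27% of all genes lower and 2.26% higher. Of the 7 decreases, 4 did not keep their call whichever array was left out. None of the 22 was called in DMSO, and 4 changed more negatively under the drug than in DMSO. SOX2 had 153.1, 170.9 and 190.3 at 4 h and 504.8, 422.4 and 436.7 at 1 h, and TFAP2B had 225.1, 285.4 and 256.8 at 4 h and 570.5, 586.0 and 533.0 at 1 h. Neither pair of groups overlapped, and the changes were -1.26 ± 0.11 (adjusted p = 3.62e-08) and -1.05 ± 0.10 (adjusted p = 1.75e-07). For the mean of its probe sets SOX2 changed by -0.62. SOX2 also had a DMSO change of -0.36 ± 0.11, which was not called (adjusted p = 0.327), and the arms differed by -0.90 ± 0.16 (adjusted p = 0.00144). ERBB3, a receptor for neuregulin, fell by 0.59 ± 0.08 (adjusted p = 6.58e-05, and a change of -0.35 for the mean of its probe sets). SOX10, a lineage factor upstream of MITF, had 443.0, 451.5 and 393.9 at 4 h and 569.6, 964.4 and 935.0 at 1 h, so the lowest 1 h array stood near the 4 h range. Its change of -0.86 ± 0.19 (adjusted p = 0.00692) lost its call without 1 h replicate 2 (adjusted p = 0.0553), in the fit to the 6 arrays (adjusted p = 0.109) and with the mean of its probe sets (adjusted p = 0.0549). FOXD3, SOX5 and TFAP2C among the decreases, and both increases, EDNRB and PAX3, also lost their calls when some array was left out. MITF itself averaged 234 ± 11.2 at 4 h and 297 ± 41.5 at 1 h (SD, n = 3 each), a change of -0.30 ± 0.11 that did not pass the test (adjusted p = 0.15). Of the 22 genes, 17 at 4 h and 18 at 1 h averaged above the median of all values, MITF, SOX10 and ERBB3 among them, while the pigment genes TYRP1 and MLANA were among the 4 dimmest. The pigment gene GPR143 was near the floor, with a mean of 3.83 at 4 h and 4.98 at 1 h, where the median of all values was 36.58. The summed signal of the list was 7091.4 to 7700.9 at 4 h and 9415.1 to 10199.6 at 1 h.

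The KLF and SP transcription factors gave 4 decreases and no increase among 16 measured, beside 2.27% and 2.26% of all genes. None was called in DMSO, and 1 of the 16 changed more negatively under the drug in the test between the arms. The list median was -0.17 in MLN4924 and -0.1 in DMSO. KLF4 had 518.0, 429.6 and 490.6 at 4 h and 758.3, 936.9 and 693.9 at 1 h, a change of -0.69 ± 0.13 (adjusted p = 0.00123, and 0.0628 in the fit to the 6 arrays), and KLF6 (-0.53 ± 0.10, and -0.32 for the mean of its probe sets) and KLF10 (-0.54 ± 0.09) fell too. Of 20 Notch genes the target HES1 fell, with 133.9, 139.2 and 115.6 at 4 h and 250.8, 272.8 and 296.7 at 1 h (-0.92 ± 0.13, adjusted p = 5.16e-05). Without _x_at and _s_at probe sets HES1 changed by -0.11 (adjusted p = 0.463). The related target HEY1 rose by 0.63 ± 0.10 (adjusted p = 0.000274, and 0.0591 in the fit to the 6 arrays).

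Of the replication and G1/S genes 2.33% were called by 4 h, which is 1 gene and too few to set apart from the 4.53% of all genes. Mitotic genes and p53 targets each had 19.4% called. Of 43 replication and G1/S genes 1 was called, CCNE1 (cyclin E1), with 279.8, 280.2 and 304.1 at 4 h and 175.9, 209.3 and 194.5 at 1 h (0.51 ± 0.09, adjusted p = 0.00075, and 0.26 for the mean of its probe sets). CDT1 had 499.7, 463.8 and 696.3 at 4 h and 587.2, 595.3 and 661.2 at 1 h, overlapping groups and no call (-0.16 ± 0.22, adjusted p = 0.828). Of 36 mitotic genes 6 rose and 1 fell, and KIF11, a spindle motor (0.38 ± 0.08, adjusted p = 0.00262), was the only one of the 7 whose call held whichever array was left out. The list median was 0.11 in MLN4924 and 0.11 in DMSO, and none of the 36 passed the test of a difference between the arms. Of 31 p53 targets 4 rose and 2 fell. PMAIP1 (NOXA), a killer protein of the BCL2 family, had 1773, 1736 and 1674 at 4 h and 1201, 1177 and 1260 at 1 h, a change of 0.50 ± 0.07 (adjusted p = 2.87e-05) against -0.28 in DMSO. CDKN1A, the p21 gene, averaged 299 ± 34.9 at 4 h and 417 ± 24.6 at 1 h (SD, n = 3 each), lower in every 4 h array but not called (-0.45 ± 0.13, adjusted p = 0.0567). Over 15 alternatives its adjusted p ran from 0.0256, when dim genes were dropped, to 0.209, and in 11 it stayed not called. MDM2, the ligase that restrains p53, was higher in every 4 h array and also not called (0.32 ± 0.10, adjusted p = 0.0595, and 0.0278 when dim genes were dropped). Over 16 alternatives its change ran from 0.08 to 0.37 and its adjusted p from 0.0206 to 0.795, and in 11 it stayed not called.

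Of 23 NEDD8 pathway genes, which include the enzyme inhibited, 2 rose, beside 2.26% of all genes, and 21 were not called. DCUN1D2, a co-factor that helps load NEDD8 on cullins, had 169.9, 165.5 and 182.1 at 4 h and 96.99, 98.26 and 103.9 at 1 h (0.63 ± 0.11, adjusted p = 0.000417). DCUN1D4 rose by 0.22 ± 0.06 (adjusted p = 0.0452), a call lost without any 1 of the 6 arrays (adjusted p = 0.0801 without 4 h replicate 2 and 0.166 without 1 h replicate 1). NAE1 (0.14 ± 0.05), UBA3 (-0.10 ± 0.15) and NEDD8 (0.09 ± 0.06) were not called, nor were CUL1 (0.19 ± 0.09) and CUL3 (0.07 ± 0.05). Of 39 cullins and substrate receptors 4 fell and 1, KEAP1, rose, beside 2.27% and 2.26% of all genes. The largest decrease was SOCS2, a receptor subunit that damps cytokine signalling, with 117.8, 137.7 and 116.1 at 4 h and 216.1, 252.3 and 242.7 at 1 h (-0.79 ± 0.07, adjusted p = 8.04e-08, and -0.35 for the mean of its probe sets).

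Of 17 heat shock chaperones 2 rose (11.8%), and of 23 genes of the ER chaperones and unfolded protein response 3 fell (13%), beside 4.53% of all genes called. The last share depends on the filter, as 1086 genes were called when genes of low signal were left out. Counts of 2 and 3 genes do not set these lists apart. The ER decreases were CREB3L2 (-0.39), DNAJC3 (-0.33) and PDIA6 (-0.27), and all 3 calls were lost in the fit to the 6 arrays (adjusted p = 0.0752, 0.109 and 0.233). DNAJB4, a heat shock co-chaperone, had 708.2, 637.4 and 719.7 at 4 h and 217.5, 213.1 and 208.1 at 1 h, a change of 1.56 ± 0.09 (adjusted p = 1.35e-11), with 0.35 ± 0.09 in DMSO, which was not called (adjusted p = 0.102). DNAJB1 rose in both arms, by 0.75 ± 0.07 under the drug and 0.53 ± 0.07 in DMSO, and the other 15 of 17 heat shock genes were not called in MLN4924. INSIG1 and SCD, targets of the sterol and lipid factor SREBP, rose in both arms, SCD by 0.47 ± 0.08 under the drug (adjusted p = 0.00073, and 0.072 in the fit to the 6 arrays) and 0.58 ± 0.08 in DMSO. The call of INSIG1 under the drug (0.35 ± 0.09, adjusted p = 0.0242) was lost in the fit to the 6 arrays (adjusted p = 0.115) and without 4 h replicate 2 (0.132), 4 h replicate 3 (0.0865), 1 h replicate 1 (0.101) or 1 h replicate 2 (0.0647). No proteasome subunit of 29, no housekeeping gene of 12, and no marker of fibroblasts (10), epithelium (12), blood (7) or endothelium (8) was called. The summed signal of the fibroblast markers was 342.2 to 431.2 at 4 h and 409.2 to 426.8 at 1 h, and that of the epithelial markers 5231.5 to 5896 at 4 h and 5434.9 to 6088.9 at 1 h. The blood markers summed to 278.8 to 341.4 at 4 h and 296.7 to 308.5 at 1 h, and the endothelial markers to 132.4 to 198.9 at 4 h and 165.0 to 194.8 at 1 h. These ranges overlapped between the times in all 4 lists.

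**Figure D3:**
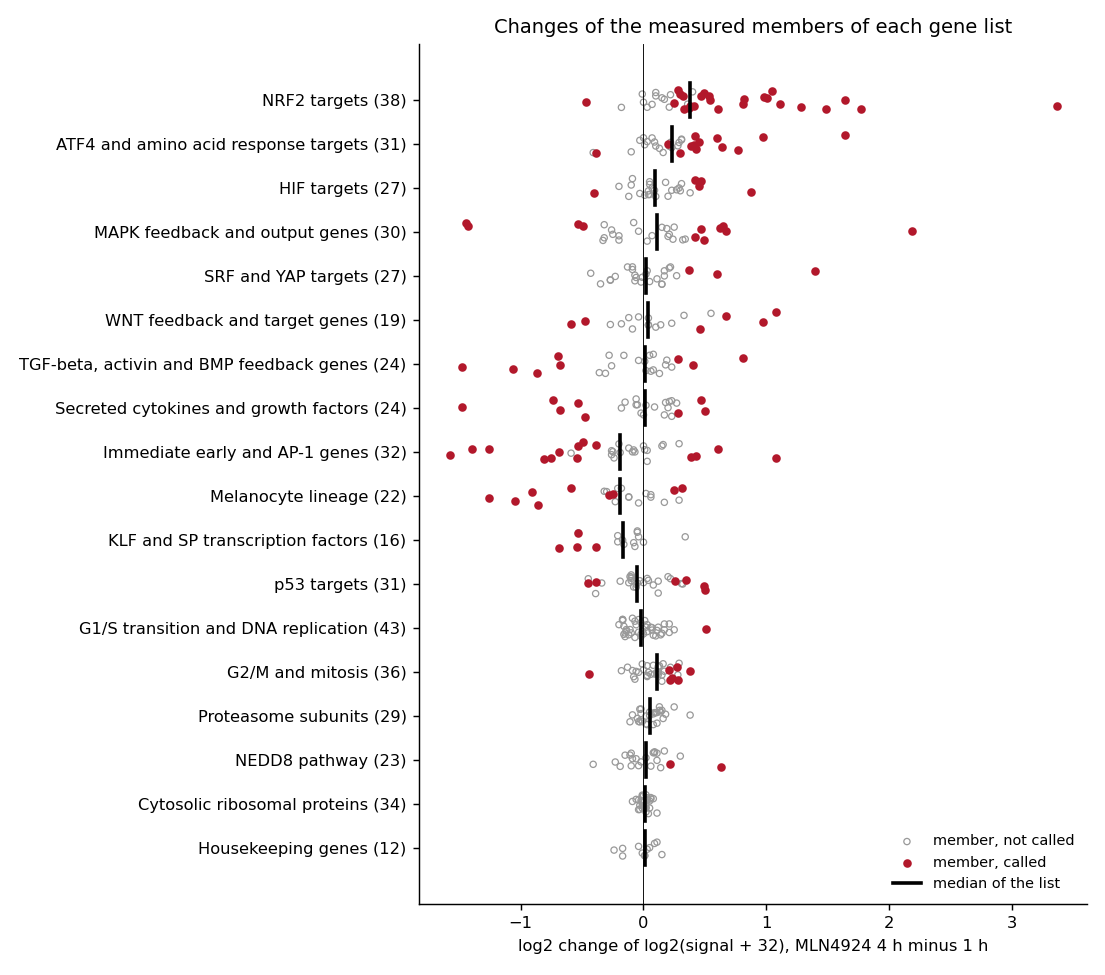
Change of every measured member of 18 gene lists (horizontal axis, log2 of signal + 32, MLN4924 4 h minus 1 h, n = 3 arrays a group). Filled points were called, open points were not, and vertical bars are list medians, with the number of measured members in brackets. NRF2 targets have the highest median (0.38) of the lists drawn, and ribosomal proteins and housekeeping genes stay close to 0.

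Some of the largest changes were in genes outside these lists. KRTAP3-1, a keratin-associated protein of hair, had 145.6, 180.5 and 132.0 at 4 h and 12.01, 7.167 and 10.68 at 1 h (2.13 ± 0.19, adjusted p = 3.62e-08), and it belongs to a family of close copies. With 1 added to the signal its change was 3.83. TRIM16, a TRIM-family ubiquitin ligase, had 1199, 1362 and 1264 at 4 h and 424.4, 315.1 and 411.8 at 1 h (1.66 ± 0.12, adjusted p = 9.5e-10). KCNE4, an accessory subunit of potassium channels, had 150.2, 160.8 and 160.1 at 4 h and 29.21, 34.42 and 28.67 at 1 h (1.59 ± 0.17, adjusted p = 1.15e-06, and 0.0696 with 1 added to the signal in place of 32). The groups were far apart in all 3 genes. NAV3, a microtubule-binding protein, had 88.04, 84.24 and 77.27 at 4 h and 8.553, 6.873 and 9.933 at 1 h (1.51 ± 0.24, adjusted p = 0.000181). Its 1 h signals lay near the floor, and its change ran from 0.48 with the mean of its probe sets to 3.17 with 1 added to the signal. F2RL2, the protease receptor PAR3, had 370.5, 388.5 and 370.5 at 4 h and 128.9, 128.2 and 118.6 at 1 h (1.38 ± 0.10, adjusted p = 1.93e-09). Among the decreases, the polysialyltransferase ST8SIA4 had 81.8, 49.96 and 95.15 at 4 h and 319.3, 193.4 and 260.8 at 1 h (-1.43 ± 0.15, adjusted p = 7.75e-07, and -0.94 for the mean of its probe sets). The zinc transporter SLC39A11 had 81.11, 69.94 and 88.29 at 4 h and 204.6, 242.0 and 224.1 at 1 h (-1.19 ± 0.10, adjusted p = 8.03e-09). RCAN1, a regulator of calcineurin, fell by 1.05 ± 0.09 (adjusted p = 1.85e-08), but the probe set left without the _x_at and _s_at kinds changed by 0.21 (adjusted p = 0.737). The noncoding MIR181A2HG had 6.357, 15.34 and 7.707 at 4 h and 50.64, 62.59 and 51.54 at 1 h, a change of -1.06 ± 0.25 (adjusted p = 0.0135) beside -1.10 in DMSO (adjusted p = 0.0677). Its change was -2.46 with 1 added to the signal, and its call under the drug was lost without 4 h replicate 1 (0.06), 4 h replicate 3 (0.0527) or 1 h replicate 2 (0.0621).

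The 2 arms were also set side by side gene by gene. A total of 40 genes were called in both arms, 4.46% of the genes called in MLN4924 and 59.7% of those called in DMSO, and 31 of the 40 moved in the same direction. The remaining 9 moved in opposite directions. NR4A2 had 312.1, 288.4 and 398.9 at 4 h in DMSO and 139.7, 168.2 and 163.7 at 1 h in DMSO, the reverse of its order under the drug. ARRDC3, an arrestin-like adaptor of receptor traffic, had 148.0, 152.3 and 145.8 at 4 h and 257.3, 248.0 and 317.7 at 1 h under the drug (-0.75 ± 0.10, adjusted p = 3.66e-05). In DMSO it had 357.5, 322.2 and 308.8 at 4 h and 164.5, 252.4 and 198.0 at 1 h (0.62 ± 0.10, adjusted p = 0.00349). The others were EGR1 and CCN2, given above, and ATF3, IER2, FLRT3, LOXL4 and TENT5A, whose calls under the drug were each lost in the fit to the 6 arrays. The DMSO calls of all 9 were lost in the fit to the 6 DMSO arrays alone, which called 0 genes.

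**Figure D4:**
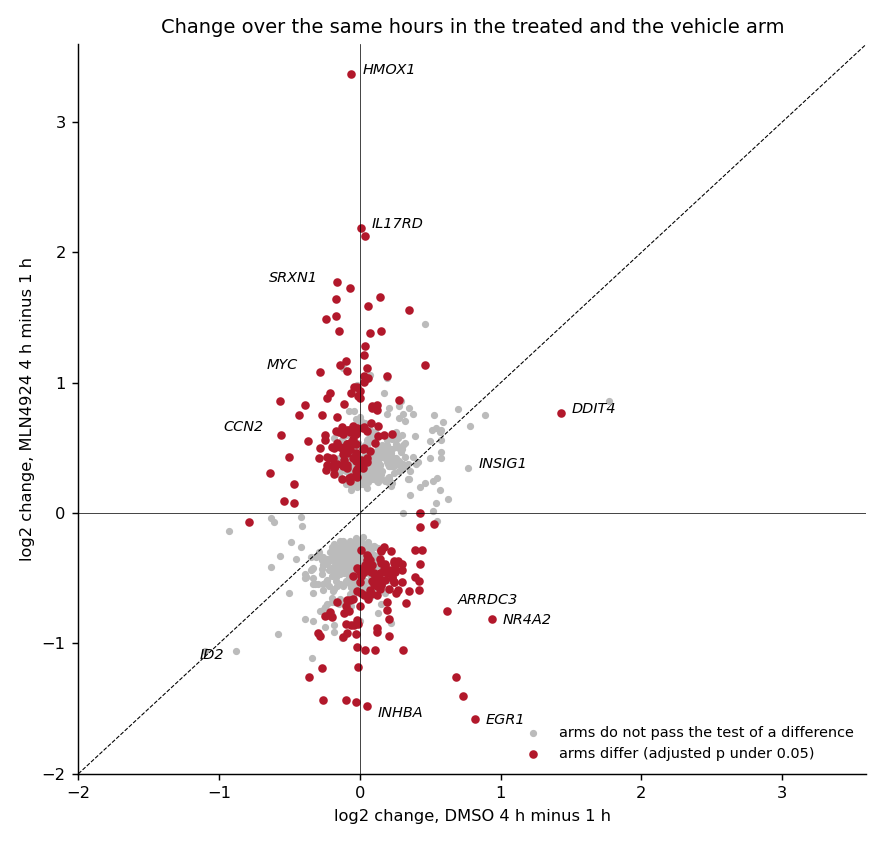
Log2 change from 1 h to 4 h of genes called in MLN4924 or in DMSO, MLN4924 on the vertical axis and DMSO on the horizontal (n = 3 arrays a group). Genes called only in the test of the difference are not drawn. Red points passed the test of a difference between the arms and the dashed line marks equal change. HMOX1 lies at 3.37 for MLN4924, DDIT4 lies right of the line with a DMSO change of 1.43, and NR4A2, ARRDC3 and EGR1 lie where the arms moved in opposite directions.

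The 2 h arrays place the changes in time. MLN4924 at 2 h differed from 1 h for 109 genes (0.551%) and 4 h from 2 h for 306 genes (1.55%). These comparisons share arrays with each other and with 4 h minus 1 h, so their values are given side by side only. HMOX1 averaged 335 ± 62.5 at 1 h, 1810 ± 140 at 2 h and 3730 ± 115 at 4 h (SD, n = 3 each), with log2 steps of 2.34 and 1.03. MYC averaged 250 ± 18.1, 489 ± 48.7 and 562 ± 36.6 at 1, 2 and 4 h, so its first step (0.88, adjusted p = 2.7e-06) was called and its second (0.19, adjusted p = 0.458) was not. PDK1, PMAIP1 and HES1 likewise had a called first step (0.47, 0.44 and -0.90) and a second step that was not called (0.00, 0.06 and -0.02). IL17RD took the other course, with 131 ± 12.8, 230 ± 61.4 and 713 ± 60.8 and steps of 0.66 (adjusted p = 0.0607) and 1.54 (adjusted p = 2.02e-06). TFAP2B averaged 563 ± 27.2, 537 ± 46.9 and 256 ± 30.1, with steps of -0.07 (adjusted p = 0.933) and -0.99 (adjusted p = 2.02e-06), and DNAJB1 averaged 1020 ± 30.7, 1020 ± 71.4 and 1750 ± 104.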

How the data were processed

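Gene expression was measured on 30 Affymetrix HG-U133 Plus 2.0 arrays of A375 cells, 3 for each of 10 groups. The deposited values are probe set intensities on a linear scale from Affymetrix Expression Console, per the submitters' processing notes, with algorithm and version not given in the sources used here. They ran from 0 to 18206.6, with 55 zeros, and every array had a trimmed mean of 150 with 2% cut at each end. This scaling fixes overall brightness, so a shift of all genes cannot be seen.

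The values were quantile-normalized, 32 was added and log2 taken. Of 54675 probe sets, 41097 had 1 gene symbol in the platform annotation, 1801 several and 11777 none. The brightest probe set stood for each of 19775 genes. limma 3.58.1 in R 4.3.3 was fitted to all 30 arrays (20 residual and 3.04 prior degrees of freedom), with Benjamini-Hochberg adjustment, and a gene was called at an adjusted p under 0.05. The fit was run on simulated arrays with known log2 changes at MLN4924 4 h and noise independent between genes. It called 30 of 68 changes of 0.5 (44.1%), 61 of 64 of 1 and 68 of 68 of 2, and 5 of its 164 calls were false. A change near 0.5 that was not called can thus have been missed.

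Members and gene lists were chosen with earlier results of these data known. The named-gene rule took the 15 largest increases and 15 largest decreases without overlap and above the median signal, up to 4 called members of each list, the 10 most positive and 10 most negative differences from DMSO, and members that define a list. Other list members are named beside them, chosen after their values were seen. Alternatives changed the scaling, the number added, the filter, the probe set rule, the arrays in the fit and the replicate block. Promoter windows are the 250 bases before RefSeq gene starts on GRCh38.p14. Figures were drawn in matplotlib 3.10.9 and Python 3.11.15.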

Additional observations from a re-analysis of the deposited data

Results flagged for a closer look

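The following 9 genes were called in both arms over the same hours but in opposite directions (limma, n = 3 arrays a group). They were chosen for these opposite calls, so the differences below (MLN4924 change minus DMSO change) are a description. The fit to the 6 DMSO arrays alone called 0 genes, so all 9 DMSO calls rest on the fit to all 30 arrays. Lower under MLN4924 and higher in DMSO at 4 h than at 1 h were EGR1, with a difference of -2.40, NR4A2 (-1.75), ARRDC3 (-1.38), FLRT3 (-0.89), IER2 (-0.82), LOXL4 (-0.71) and TENT5A (-0.68). FLRT3, a membrane protein of cell adhesion, had 1029, 1134 and 1174 at 4 h and 1491, 1774 and 1481 at 1 h under MLN4924, against 1882, 1901 and 1826 at 4 h and 1448, 1384 and 1415 at 1 h in DMSO. In the fit to the 6 arrays alone the MLN4924 calls of FLRT3 (adjusted p = 0.0752), IER2 (0.164), LOXL4 (0.159) and TENT5A (0.164) were lost. TENT5A lost its call in 8 of 16 alternatives, with -0.16 without _x_at and _s_at probe sets (adjusted p = 0.574). Its adjusted p-values were 0.0944 to 0.142 without 4 h replicate 1 or 3 or 1 h replicate 1 or 3. LOXL4 lost its call in 5, with -0.14 for the mean of probe sets (adjusted p = 0.607), 0.0739 without 4 h replicate 2 and 0.13 without 1 h replicate 2. IER2 also lost its call without 4 h replicate 2 (adjusted p = 0.0637).

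Higher under MLN4924 and lower in DMSO were CCN2, with a difference of 1.16, and the stress-induced factor ATF3 (0.93). ATF3 had 169.6, 160.3 and 136.3 at 4 h and 95.17, 100.1 and 126.6 at 1 h under MLN4924, against 66.72, 66.56 and 73.69 at 4 h and 117.6, 103.8 and 111.5 at 1 h in DMSO. Its call under MLN4924 (0.43, adjusted p = 0.019) was lost in 9 of 16 alternatives. The change was 0.23 with the mean of probe sets (adjusted p = 0.246) and 0.23 without _x_at and _s_at probe sets (adjusted p = 0.604), and the adjusted p was 0.145 in the fit to the 6 arrays. It was 0.0767 to 0.105 without 4 h replicate 1 or 2 or 1 h replicate 1 or 2, 0.0503 with the signals as deposited and 0.0658 with 1 added to the signal.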

How the results depend on the processing

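In the fits to only the arrays compared, MLN4924 4 h minus 1 h called 290 genes (896 in the fit to all arrays), MLN4924 2 h minus 1 h called 2 (109), MLN4924 4 h minus 2 h called 0 in limma with 1724 at an unadjusted p under 0.05 (306), and DMSO 4 h minus 1 h called 0 with 1594 unadjusted (67). These fits have fewer arrays to estimate the spread. The DMSO count was 35 when the probe sets of each gene were averaged, 80% of them higher against 68.7% of the 67, and 38 without _x_at and _s_at probe sets. Under the other alternatives MLN4924 4 h minus 1 h called 708 to 1086 genes. Centring each array on its median moved the share higher in MLN4924 4 h minus 2 h to 56.1%, against 43.5%, and the cause was not tested.

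Leaving out 1 array gave 623 to 656 genes for MLN4924 4 h minus 1 h, 33 to 49 for DMSO, 204 to 314 for the difference of the arms, 68 to 95 for MLN4924 2 h minus 1 h and 182 to 248 for 4 h minus 2 h. The DMSO count was 33 without any of 4 arrays (DMSO 4 h replicate 1 or 2, 1 h replicate 1 or 3) and 38 without 1 h replicate 2. Counts over 1.5 times lower also came for MLN4924 2 h minus 1 h without 2 h replicate 3 (68) or 1 h replicate 1 (70), and for 4 h minus 2 h without 4 h replicate 1 (187), 4 h replicate 3 (182) or 2 h replicate 1 (190).

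Deviations of arrays of the same replicate number from their group means were weakly correlated (-0.11 to 0.07), which does not settle whether the numbers pair arrays. On the second principal component of the 6 arrays, replicates 1, 2 and 3 lay at 9.65, -13.42 and 3.68 at 1 h. At 4 h they lay in the same order, at 10.41, -16.51 and 6.18. With the replicate block the counts were 876, 56, 258, 108 and 298 in the same order.

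Of the 157 called genes among those named or listed, 63 kept their call under every alternative. Direction turned for LINC00304 with 1 added to the signal (-0.03) and for AURKA (-0.04) and PAX3 (-0.04) with the mean of probe sets. It also turned without _x_at and _s_at probe sets for AURKA (-0.47), CREB3L2 (0.06), KPNA2 (-0.05), RCAN1 (0.21), SLC7A1 (-0.01) and TGIF1 (-0.11). The cause was not tested. Without DMSO 2 h replicates 1 and 2, an alternative chosen after seeing the data, MLN4924 4 h minus 1 h called 887 genes. The number of arrays, 3 a group, and signals near background limit what small changes can show.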

Other observations

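Zinc finger genes with a ZNF symbol, a large family of mostly repressive DNA-binding factors, were examined after their values were seen. Of 502 measured, 26 rose (5.18%) and 6 fell (1.2%) from 1 to 4 h of MLN4924, beside 2.26% and 2.27% of all genes, and their median change was 0.02. In DMSO 3 rose and 2 fell, and in the test between the arms 3 had a more positive and 1 a more negative change under the drug. ZNF823 had 193.6, 169.3 and 151.4 at 4 h and 72.71, 50.42 and 58.06 at 1 h under MLN4924 (1.14 ± 0.09, adjusted p = 4.91e-09 in limma), and it also rose in DMSO (0.46 ± 0.09, adjusted p = 0.0162). ZNF257 had 95.81, 99.45 and 82.96 at 4 h and 37.88, 44.27 and 32.82 at 1 h (0.83 ± 0.11, adjusted p = 2.39e-05). ZNF462 had 269.0, 322.8 and 324.4 at 4 h and 471.4, 488.6 and 509.1 at 1 h (-0.63 ± 0.10, adjusted p = 0.000164). Many of these genes are close copies on chromosome 19, and probe sets can share their RNA.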
